A study of Homo sapiens with 16 samples.

Results

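The NDRG family (NDRG1, NDRG2, NDRG3 and NDRG4) and the REDD pair (DDIT4, which encodes REDD1, and DDIT4L, which encodes REDD2) were followed across 4 HCT116 lines in hypoxia and normoxia. The 6 genes were taken by symbol from a table of 23669 genes, and every one of them was found. All 6 had counts high enough to be tested. The smallest count of any of them was 99, for DDIT4L in a hypoxic library.

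NDRG proteins share an alpha/beta hydrolase fold without hydrolase activity. NDRG1 is a cytoplasmic stress protein that is induced by hypoxia and iron shortage, is phosphorylated by SGK1 and GSK3, and is described as a suppressor of metastasis in colorectal cancer. REDD1 is a short-lived protein induced by hypoxia, DNA damage and glucocorticoids that acts through TSC1 and TSC2 to restrain the growth kinase complex mTORC1, and REDD2 is its paralog with the same target. Hypoxia-inducible factors bind short DNA elements with the core ACGTG or GCGTG, and both NDRG1 and DDIT4 are known as genes that these factors activate.

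HCT116 is an established human colorectal carcinoma line, and poly(A) RNA was sequenced from 4 derivatives of it. These were a line lacking HIF1A (labelled HIF1A-/-, called HIF1A-null here), a line with an shRNA to the Mediator kinase CDK8 (shCDK8), a line with an shRNA to the acetyltransferase TIP60, encoded by KAT5 (shTIP60), and a line with a non-targeting shRNA (shNT). Each was sampled after 24 h at 1% oxygen (hypoxia) and at 21% oxygen (normoxia), with 2 libraries in each of the 8 groups that the labels call independent biological replicates. Each target is represented by a single altered line, the labels give no clone for HIF1A-null and name no shRNA in it, and the shRNA lines keep their endogenous HIF1A gene. Library A and library B of a group are those with the lower and the higher library number in the headings of the table.

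Total counts per library ran from 26620086 to 39401494. Levels are counts scaled to a common library total (CPM) with trimmed mean of M-values (TMM) factors, and a gene was called where edgeR's quasi-likelihood test gave a Benjamini-Hochberg adjusted p under 0.05 over 15520 genes. The targeted genes followed the labels: CDK8 averaged 5.64 ± 0.27 CPM in hypoxic shCDK8 cells against 28.1 ± 0.28 CPM in hypoxic shNT cells, and KAT5 averaged 21.5 ± 0.70 CPM in hypoxic shTIP60 cells against 90.5 ± 4.28 CPM in hypoxic shNT cells (SD, n = 2 each). HIF1A averaged 13.6 ± 0.76 CPM in normoxic HIF1A-null cells against 107.5 ± 0.80 CPM in normoxic shNT cells, but 48.9 ± 12.4 CPM in hypoxic HIF1A-null cells against 65.9 ± 6.55 CPM in hypoxic shNT cells (SD, n = 2 each). The labels do not say which exons were deleted, so HIF1A counts in HIF1A-null cells can hold reads outside the deleted part. Of 7 markers of a colorectal epithelial line, 6 were present in every library, and CDX1 had 0 to 3 counts. The 11 markers of other cell types summed to 33.2 to 94.5 CPM, mostly COL1A1, against 3974 to 10859 CPM for the epithelial markers.

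The proximal promoters of the REDD pair are shown because DDIT4 and DDIT4L encode related proteins and had unlike responses to hypoxia. Each is the 250 bases before the start of the RefSeq gene on GRCh38.p14, written 5' to 3' on the gene's strand, with matches to ACGTG or GCGTG on either strand in capitals. DDIT4 lies at chr10:72273674-72273923 on the plus strand, and DDIT4L at chr4:100190469-100190718 on the minus strand.
DDIT4: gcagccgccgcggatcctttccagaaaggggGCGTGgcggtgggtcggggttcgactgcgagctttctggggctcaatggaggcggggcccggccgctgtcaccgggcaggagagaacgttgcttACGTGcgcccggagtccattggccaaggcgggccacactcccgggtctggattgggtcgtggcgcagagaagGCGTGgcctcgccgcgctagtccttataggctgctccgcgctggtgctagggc
DDIT4L: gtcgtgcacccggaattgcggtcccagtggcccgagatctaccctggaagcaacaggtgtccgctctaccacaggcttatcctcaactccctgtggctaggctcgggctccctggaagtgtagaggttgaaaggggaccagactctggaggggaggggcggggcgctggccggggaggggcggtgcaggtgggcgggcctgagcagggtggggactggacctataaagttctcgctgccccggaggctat
The DDIT4 window held 3 matches, a GCGTG at 219 to 215, an ACGTG at 125 to 121 and a GCGTG at 53 to 49 bases before the start. The DDIT4L window held 0, and no match says only that these letters are not in this window. Among 35116 RefSeq promoter windows of the same length, 43.21% held at least 1 match and 7.76% held at least 3. NDRG2 had 1 match in 3 of its 5 RefSeq promoters, 2 of which overlap and hold the same match, and NDRG4 had 4 matches in 1 of its 4 promoters, a number reached by 3.218% of all windows. These letters are a description of the windows and do not show binding.

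NDRG1 was the strongly induced member of its family, and its fold change in HIF1A-null cells was the smallest of the 4 lines. It had 976 and 1003 CPM in hypoxic HIF1A-null cells, against 113 and 199 CPM in normoxic HIF1A-null cells. In hypoxic shCDK8 cells it had 1329 and 2027 CPM, against 79.2 and 98.3 CPM in normoxia. In every line both hypoxic libraries stood far above both normoxic libraries. In hypoxic shTIP60 cells NDRG1 had 2614 and 2389 CPM, against 97.7 and 111 CPM in normoxia. In hypoxic shNT cells it had 2466 and 2801 CPM, against 106 and 139 CPM in normoxia. NDRG1 alone took 0.232% and 0.267% of all counts in the hypoxic shNT libraries. The fold change of hypoxia over normoxia was 6.35 in HIF1A-null (log2 2.67 ± 0.25 SE, adjusted p = 1.51e-06), 18.9 in shCDK8 (log2 4.24 ± 0.27, adjusted p = 3.54e-08), 23.9 in shTIP60 (log2 4.58 ± 0.27, adjusted p = 1.10e-08) and 21.5 in shNT (log2 4.43 ± 0.27, adjusted p = 1.19e-08). Ranked from the highest fold change among 15520 genes, NDRG1 stood at place 132 in HIF1A-null, 20 in shCDK8, 11 in shTIP60 and 31 in shNT.

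DDIT4 rose in all 4 lines, and it stayed among the most strongly induced genes in HIF1A-null cells as well. It had 605 and 850 CPM in hypoxic HIF1A-null cells, against 38.8 and 49.8 CPM in normoxia. In hypoxic shCDK8 cells it had 872 and 1115 CPM, against 47.1 and 44.9 CPM in normoxia. No hypoxic library overlapped a normoxic library of its line. In hypoxic shTIP60 cells DDIT4 had 2033 and 2086 CPM, against 99.7 and 84.8 CPM in normoxia. In hypoxic shNT cells it had 2092 and 2479 CPM, against 61.3 and 44.8 CPM in normoxia. The normoxic shTIP60 libraries were thus the highest of the 8 normoxic libraries, and the hypoxic shNT libraries the highest of all. The fold change of hypoxia over normoxia was 16.4 in HIF1A-null (adjusted p = 1.05e-08), 21.6 in shCDK8 (adjusted p = 3.96e-09), 22.3 in shTIP60 (adjusted p = 2.74e-09) and 43.1 in shNT (adjusted p = 5.35e-10). Among 15520 genes DDIT4 ranked at place 20 from the highest in HIF1A-null, 19 in shCDK8, 13 in shTIP60 and 13 in shNT.

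DDIT4L was a low gene whose direction under hypoxia differed between lines. It had 4.76 and 3.21 CPM in hypoxic HIF1A-null cells, against 5.93 and 12.6 CPM in normoxia, a log2 change of -1.22 ± 0.32 (SE, adjusted p = 0.00728). In shTIP60 cells DDIT4L rose, with 11.9 and 13.8 CPM in hypoxia against 6.49 and 7.0 CPM in normoxia (log2 0.93 ± 0.31, adjusted p = 0.0245). The shCDK8 and shNT lines held more DDIT4L in both conditions. In hypoxic shCDK8 cells it had 24.9 and 26.6 CPM, against 16.1 and 17.9 CPM in normoxia (log2 0.60 ± 0.29, adjusted p = 0.146). In hypoxic shNT cells it had 21.6 and 32.1 CPM, against 13.1 and 21.2 CPM in normoxia (log2 0.64 ± 0.29, 95% interval 0.03 to 1.26, adjusted p = 0.0884). The hypoxic libraries lay above the normoxic ones without overlap in the 3 shRNA lines and below them in HIF1A-null. The call in HIF1A-null was lost without normoxic library B (log2 -0.58, adjusted p = 0.159) or hypoxic library B (log2 -0.96, adjusted p = 0.0899). The call in shTIP60 was lost without any 1 of its 4 libraries (log2 0.82 to 1.02, adjusted p = 0.0572 to 0.128) and with library totals (log2 0.71, adjusted p = 0.0890). In shNT the gene was called without normoxic library B (log2 1.04, adjusted p = 0.0354) or hypoxic library A (log2 0.90, adjusted p = 0.0454). A fit of the compared groups only called it in shCDK8 (adjusted p = 0.0236) and shNT (adjusted p = 0.0493), and a fit with no filter on low counts did so too (adjusted p = 0.00795 in shCDK8 and 0.00242 in shNT).

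**Figure D1:**
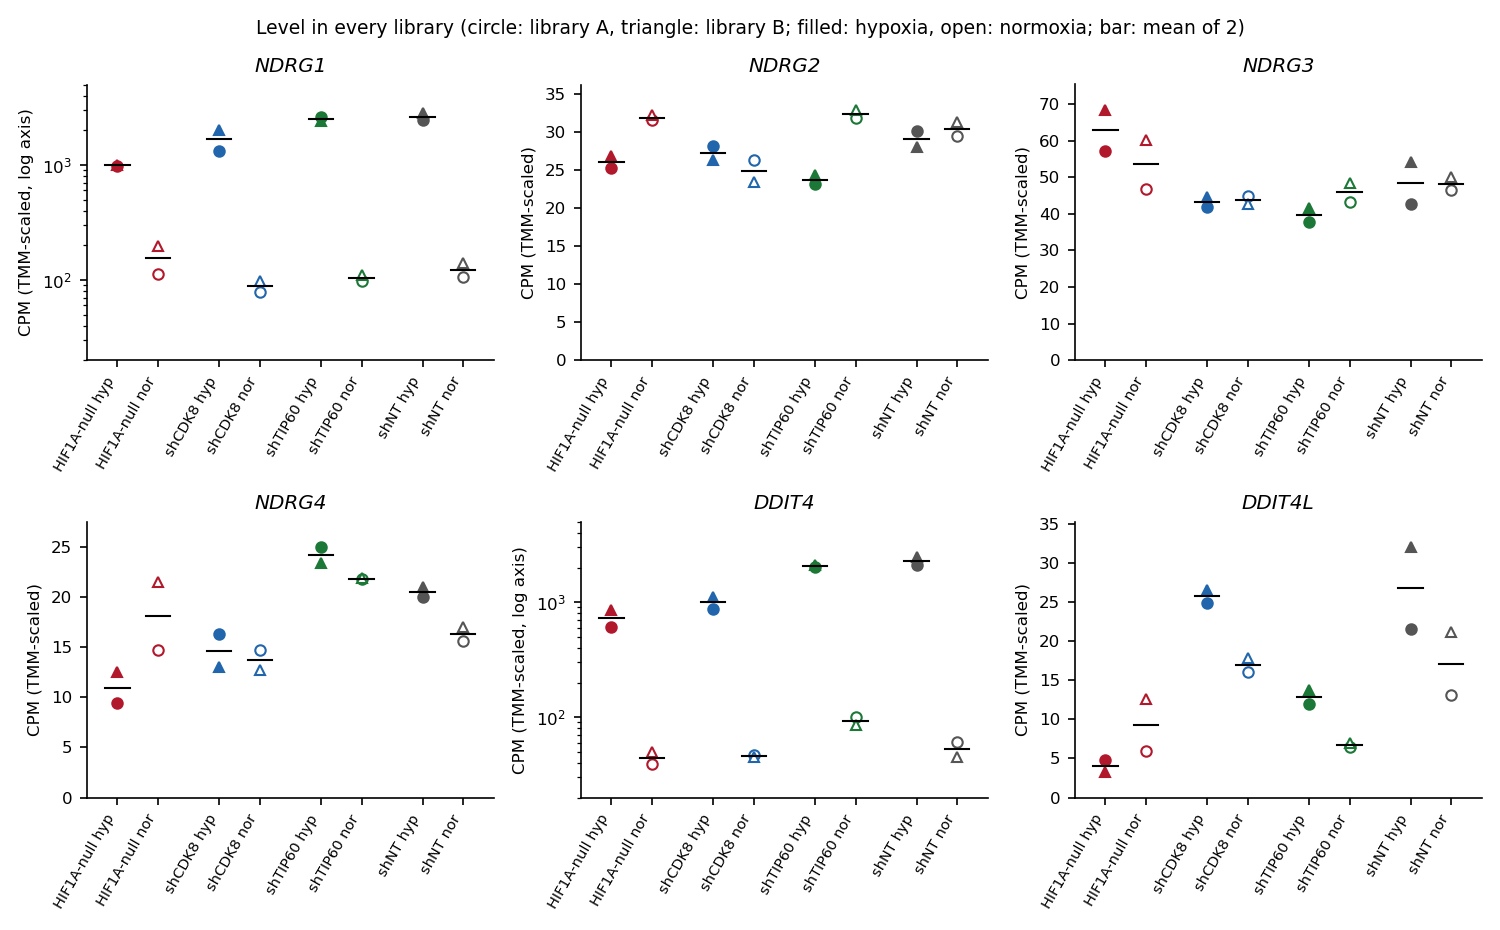
CPM of each of the 6 genes in every library, with hypoxia (hyp, filled) left of normoxia (nor, open) in each line, circles for library A, triangles for library B and a bar at the mean of 2. NDRG1 and DDIT4 are on log axes and reach 2801 and 2479 CPM in hypoxic shNT cells, and the other 4 genes are on linear axes and stay at or under 68.4 CPM.

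The other 3 members of the NDRG family moved far less. NDRG4, a member best known from brain and heart and as a gene methylated in colorectal cancer, had 9.41 and 12.5 CPM in hypoxic HIF1A-null cells, against 14.8 and 21.5 CPM in normoxia. This was a log2 change of -0.72 ± 0.19 (SE, adjusted p = 0.00687). The call was lost without normoxic library B (log2 -0.43, adjusted p = 0.106) or hypoxic library A (log2 -0.54, adjusted p = 0.0707) of HIF1A-null, and in a fit of these groups only (log2 -0.73, adjusted p = 0.0568). In the other lines NDRG4 was not called, with log2 fold changes of 0.09 in shCDK8, 0.15 in shTIP60 and 0.33 in shNT. In hypoxic shNT cells it had 19.98 and 21.1 CPM, against 15.6 and 17.0 CPM in normoxia, without overlap.

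NDRG2, a MYC-repressed gene described as a tumour suppressor, passed the test for hypoxia in shTIP60 and lay near the threshold in HIF1A-null. It had 23.2 and 24.3 CPM in hypoxic shTIP60 cells, against 31.9 and 33.0 CPM in normoxic shTIP60 cells, a log2 change of -0.45 ± 0.12 (SE, adjusted p = 0.00845). The call was lost without normoxic library B (log2 -0.43, adjusted p = 0.0567) or hypoxic library A (log2 -0.42, adjusted p = 0.0734) of shTIP60. In HIF1A-null NDRG2 had 25.3 and 26.9 CPM in hypoxia against 31.6 and 32.3 CPM in normoxia (log2 -0.29 ± 0.12, edgeR adjusted p = 0.0715). It was called in HIF1A-null by DESeq2 (adjusted p = 0.0455), among genes with a mean of at least 5 CPM (adjusted p = 0.0399) and with library totals in place of TMM factors (log2 -0.56, adjusted p = 0.00222). Both lines had their hypoxic libraries below their normoxic ones, and in shNT and shCDK8 the libraries overlapped.

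NDRG3, whose protein binds lactate and is marked for degradation by the oxygen sensor PHD2 and VHL, passed the test in none of the 13 comparisons. Its hypoxia log2 fold changes were 0.23 ± 0.15 in HIF1A-null, -0.02 ± 0.15 in shCDK8, -0.21 ± 0.15 in shTIP60 and 0.01 ± 0.15 in shNT (SE). With library totals that in shTIP60 was -0.43 and was called (adjusted p = 0.0469). The 95% interval in shNT was -0.32 to 0.33, so a larger change of its mRNA in that line lies outside the interval. Protein levels were not measured.

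Read over the 6 genes, hypoxia called 4 members in HIF1A-null (2 higher, 2 lower), where 38% of all tested genes were called, 18.9% higher and 19.1% lower. It called 2 in shCDK8, where 24.8% of all genes were called. It called 4 in shTIP60 (3 higher, 1 lower), against 39.2% of all genes (19.4% higher and 19.8% lower), and 2 in shNT, both higher, against 40.7% of all genes (20.7% higher and 20% lower). Beside these shares the number of members called is not a result in itself, and the sizes of the changes carry the description. The median log2 fold change of the 6 genes was -0.03 in HIF1A-null, 0.36 in shCDK8, 0.54 in shTIP60 and 0.49 in shNT, beside medians over all genes of -0.0023, -0.0016, -0.016 and -0.00067 in the same order of lines.

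**Figure D2:**
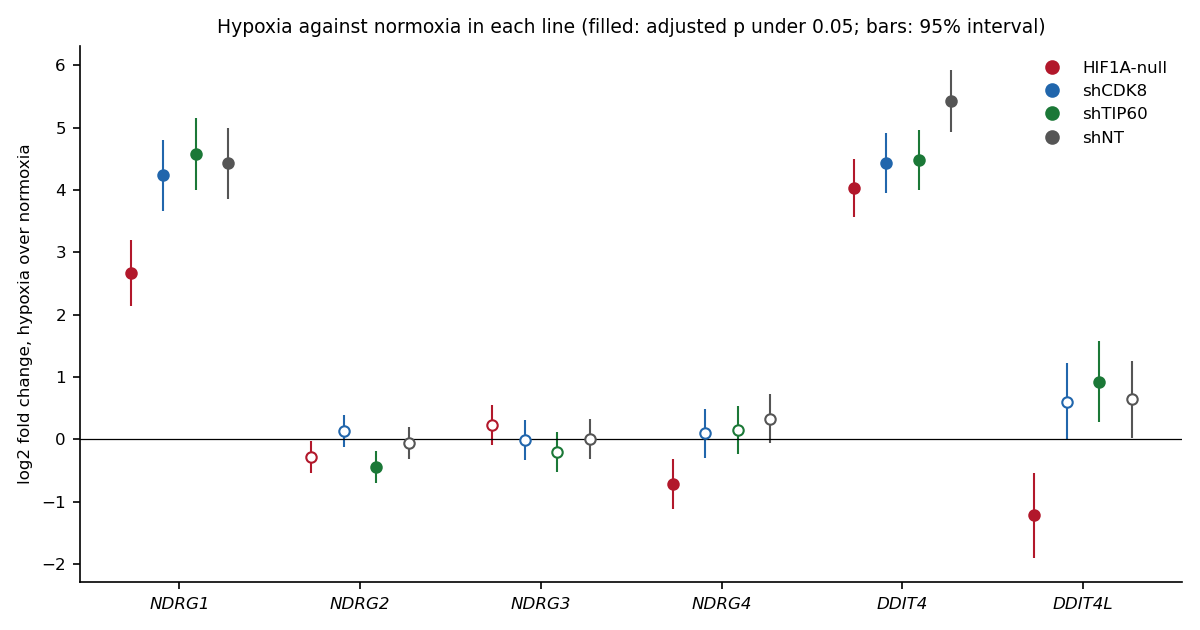
Log2 fold change of hypoxia over normoxia for each gene in HIF1A-null, shCDK8, shTIP60 and shNT, with 95% intervals and filled points where the adjusted p was under 0.05. NDRG1 and DDIT4 lie between 2.67 and 5.43 in all 4 lines, and DDIT4L and NDRG4 lie below 0 in HIF1A-null.

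In normoxia the members called against shNT were the REDD pair in shTIP60. DDIT4 was 1.74-fold higher in normoxic shTIP60 cells, at 92.2 ± 10.5 CPM against 53.1 ± 11.7 CPM in normoxic shNT cells (SD, n = 2 each, log2 0.80 ± 0.20 SE, adjusted p = 0.00990). DDIT4L went the other way, at 6.75 ± 0.36 CPM in normoxic shTIP60 cells against 17.1 ± 5.72 CPM in normoxic shNT cells, a log2 change of -1.35 ± 0.30 (SE, adjusted p = 0.00554). NDRG4 had 21.9 ± 0.10 CPM in normoxic shTIP60 cells against 16.3 ± 0.98 CPM in normoxic shNT cells and was not called (log2 0.42 ± 0.18, adjusted p = 0.134). A fit of the compared groups only did call it (log2 0.43, adjusted p = 0.0164). The REDD pair thus made 2 of 6 members called as reported, where 18.4% of all genes were called. Without normoxic shNT library B neither call was kept (DDIT4 log2 0.59, adjusted p = 0.135; DDIT4L log2 -0.96, adjusted p = 0.0894). Without normoxic shTIP60 library A neither was kept either (DDIT4 log2 0.68, adjusted p = 0.105; DDIT4L log2 -1.29, adjusted p = 0.0603).

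In normoxic HIF1A-null cells 0 of 6 members were called by edgeR, beside 11.7% of all genes, with 1 member at an unadjusted p under 0.05 and 1 called by DESeq2. Both counts are DDIT4L, at 9.26 ± 4.72 CPM in normoxic HIF1A-null cells against 17.1 ± 5.72 CPM in normoxic shNT cells (SD, n = 2 each, log2 -0.89 ± 0.30, edgeR adjusted p = 0.0640, DESeq2 adjusted p = 0.0325). It was also called by edgeR without normoxic shNT library A (log2 -1.19, adjusted p = 0.0397) or normoxic HIF1A-null library B (log2 -1.53, adjusted p = 0.00376). NDRG1 had a log2 difference of 0.35 in HIF1A-null and DDIT4 one of -0.26, with overlapping libraries for both. In normoxic shCDK8 cells 0 of 6 members were called by edgeR, beside 13.1% of all genes, with 1 (NDRG2) at an unadjusted p under 0.05 and 0 called by DESeq2. NDRG1 was at 88.8 ± 13.5 CPM in normoxic shCDK8 cells against 122 ± 23.7 CPM in normoxic shNT cells (SD, n = 2 each, log2 -0.46 ± 0.24, adjusted p = 0.236). Its libraries lay below those of shNT without overlap, and an edgeR fit with no filter on low counts called it (adjusted p = 0.0242).

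In hypoxia, HIF1A-null cells held less NDRG1, NDRG4, DDIT4 and DDIT4L than shNT cells. NDRG1 was at 990 ± 19.3 CPM in hypoxic HIF1A-null cells against 2634 ± 237 CPM in hypoxic shNT cells (SD, n = 2 each), a log2 change of -1.41 ± 0.24 (SE, adjusted p = 2.30e-04). DDIT4 was at 727 ± 173 CPM in HIF1A-null against 2286 ± 274 CPM in shNT, a log2 change of -1.65 ± 0.20 (adjusted p = 9.49e-06). DDIT4L had the largest difference of the 6 genes, at 3.99 ± 1.09 CPM in HIF1A-null against 26.8 ± 7.41 CPM in shNT, a log2 change of -2.76 ± 0.32 (adjusted p = 7.51e-06). NDRG4 was at 10.95 ± 2.19 CPM in HIF1A-null against 20.5 ± 0.77 CPM in shNT, a log2 change of -0.90 ± 0.19 (adjusted p = 0.00138). These 4 of 6 members, all lower, stand beside 41.1% of all genes called in either direction and 20.8% called lower. NDRG3 lay on the other side, at 57.2 and 68.4 CPM in hypoxic HIF1A-null cells against 42.6 and 54.2 CPM in hypoxic shNT cells, without overlap, but did not pass the test (log2 0.38 ± 0.15, adjusted p = 0.0597). NDRG3 was called without hypoxic shNT library B (log2 0.56, adjusted p = 0.0258) or hypoxic HIF1A-null library A (log2 0.50, adjusted p = 0.0382).

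In hypoxic shCDK8 cells DDIT4 reached 994 ± 172 CPM, against 2286 ± 274 CPM in hypoxic shNT cells (SD, n = 2 each), a log2 change of -1.20 ± 0.20 (SE, adjusted p = 3.61e-04). NDRG1 was also lower, at 1678 ± 494 CPM in shCDK8 against 2634 ± 237 CPM in shNT, a log2 change of -0.65 ± 0.24 with an adjusted p of 0.04996, at the threshold. The NDRG1 call was lost without hypoxic shNT library A (log2 -0.74, adjusted p = 0.0681), hypoxic shNT library B (log2 -0.55, adjusted p = 0.218) or hypoxic shCDK8 library A (log2 -0.38, adjusted p = 0.396), and with library totals in place of TMM factors (adjusted p = 0.0632). The DDIT4 call was not lost under any alternative run. These were 2 of 6 members, where 27.9% of all genes were called. NDRG4 was at 14.7 ± 2.38 CPM in hypoxic shCDK8 cells against 20.5 ± 0.77 CPM in hypoxic shNT cells and just missed the threshold (log2 -0.48 ± 0.19, edgeR adjusted p = 0.0637, DESeq2 adjusted p = 0.0463). DDIT4L differed by -0.06 (95% interval -0.67 to 0.55).

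In hypoxic shTIP60 cells the 2 strongly induced genes were near the levels of shNT. NDRG1 was at 2502 ± 159 CPM in shTIP60 against 2634 ± 237 CPM in shNT (SD, n = 2 each, log2 -0.07, 95% interval -0.57 to 0.42), and DDIT4 was at 2060 ± 37.2 CPM in shTIP60 against 2286 ± 274 CPM in shNT (log2 -0.15, 95% interval -0.56 to 0.26). DDIT4L was the 1 member called of 6, where 21.8% of all genes were called. It had 12.8 ± 1.30 CPM in hypoxic shTIP60 cells against 26.8 ± 7.41 CPM in hypoxic shNT cells, a log2 change of -1.06 ± 0.29 (SE, adjusted p = 0.0167). That call was lost without hypoxic shNT library B (log2 -0.75, adjusted p = 0.181), hypoxic shTIP60 library A (log2 -0.97, adjusted p = 0.129) or hypoxic shTIP60 library B (log2 -1.17, adjusted p = 0.0667). The comparisons of the 3 lines share the same shNT libraries and are not independent of each other.

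**Figure D3:**
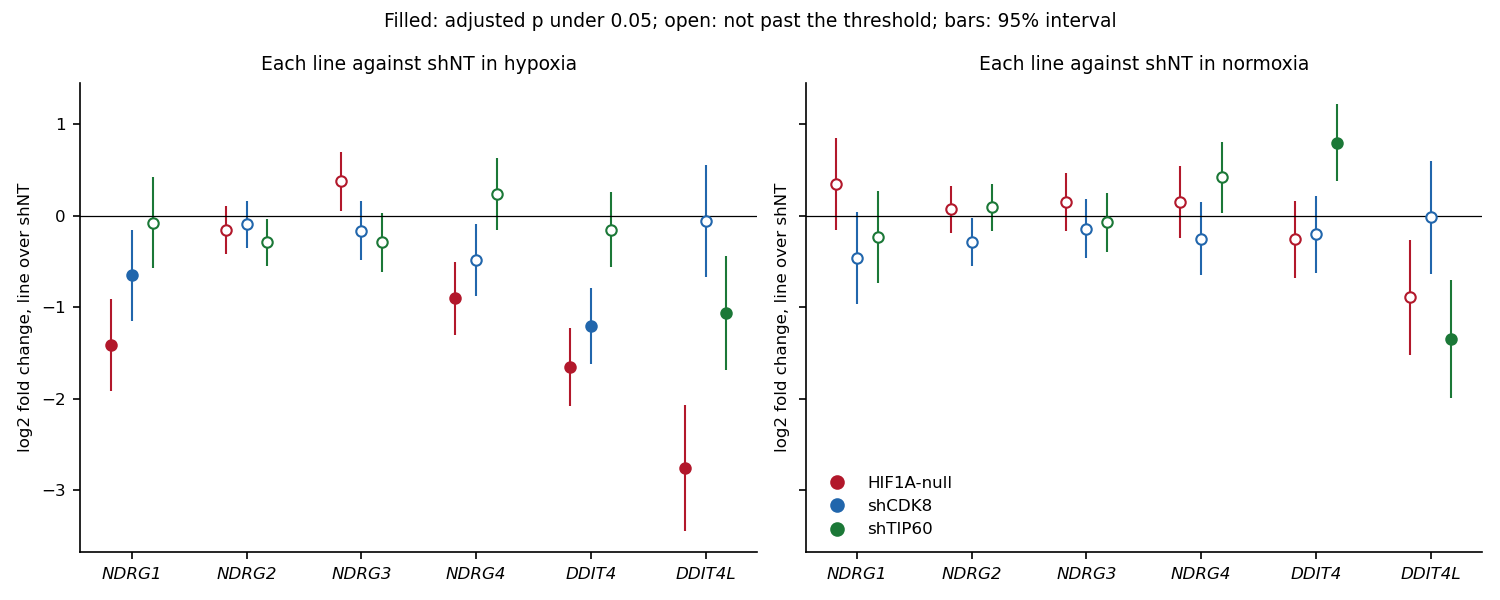
Log2 fold change of HIF1A-null, shCDK8 and shTIP60 over shNT for each gene, in hypoxia (left) and normoxia (right), with 95% intervals and filled points where the adjusted p was under 0.05. In hypoxia DDIT4L and DDIT4 in HIF1A-null lie at -2.76 and -1.65, and in normoxia DDIT4 and DDIT4L in shTIP60 lie on opposite sides of 0.

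The hypoxia response itself was compared between each altered line and shNT with an interaction contrast. The HIF1A-null response was smaller than that of shNT for NDRG1 (log2 difference -1.76 ± 0.33 SE, adjusted p = 0.00263) and for DDIT4 (-1.39 ± 0.28, adjusted p = 0.00352). For DDIT4L the difference was -1.87 ± 0.43 (adjusted p = 0.00901) and for NDRG4 -1.05 ± 0.26 (adjusted p = 0.0141), and both genes were lower in hypoxia than in normoxia in HIF1A-null but not in shNT. These 4 of 6 members, all with a lower response, stand beside 16.4% of all genes called in either direction and 8.92% called lower. NDRG2 had a difference of -0.22 (95% interval -0.59 to 0.14) and NDRG3 one of 0.22 (95% interval -0.23 to 0.68). Without normoxic shNT library A, NDRG4 (log2 -0.99, adjusted p = 0.0643) and DDIT4L (log2 -1.56, adjusted p = 0.0511) were not called. Without normoxic HIF1A-null library B they were not called either (NDRG4 log2 -0.76, adjusted p = 0.0691; DDIT4L log2 -1.22, adjusted p = 0.0504), nor in a fit of the compared groups only (NDRG4 adjusted p = 0.0638, DDIT4L adjusted p = 0.0584).

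The shCDK8 response had 0 of 6 members called by edgeR, beside 0.0387% of all genes, with 1 (DDIT4) at an unadjusted p under 0.05 and 1 (DDIT4) called by DESeq2. The DDIT4 response in shCDK8 differed by -0.997 ± 0.28 on the log2 scale (95% interval -1.59 to -0.41, edgeR adjusted p = 0.187, DESeq2 adjusted p = 0.0283). The NDRG1 response differed by -0.19 (95% interval -0.89 to 0.52). The shTIP60 response had 0 of 6 members called by edgeR, beside 0.0322% of all genes, with 2 (NDRG2 and DDIT4) at an unadjusted p under 0.05 and 0 called by DESeq2. The DDIT4 response in shTIP60 differed by -0.95 ± 0.28 (95% interval -1.54 to -0.36, adjusted p = 0.417). In that line DDIT4 was higher in normoxia and within the error of shNT in hypoxia.

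Levels of different genes were set side by side per kilobase of the canonical transcript. For DDIT4, which has no canonical tag in the annotation used, the principal transcript was taken. In all 4 hypoxic groups DDIT4 had the highest mean level per kilobase of the 6 genes and NDRG1 the next. In shNT these were 1308 ± 156 CPM per kb for DDIT4 and 871 ± 78.3 CPM per kb for NDRG1 (SD, n = 2). They were within their spread in shCDK8, at 569 ± 98.3 CPM per kb for DDIT4 and 555 ± 163 CPM per kb for NDRG1. The same held in HIF1A-null, at 416 ± 99.2 CPM per kb for DDIT4 and 327 ± 6.38 CPM per kb for NDRG1. In normoxia NDRG1 came before DDIT4 in HIF1A-null, shCDK8 and shNT, and DDIT4 before NDRG1 in shTIP60 (52.8 ± 6.003 CPM per kb for DDIT4 and 34.5 ± 3.19 for NDRG1). The normoxic levels were within their spread in shCDK8 (29.3 ± 4.45 for NDRG1 and 26.3 ± 0.90 for DDIT4) and in shNT (40.5 ± 7.84 for NDRG1 and 30.4 ± 6.70 for DDIT4). The order in normoxia depends on the length used, since the merged exons of NDRG1 span 12002 bases and its canonical transcript 3025. With merged exon lengths DDIT4 came first and NDRG3 next in all 4 normoxic groups. NDRG3 was at 13.3 to 21.1 CPM per kb over the 8 group means, and NDRG2, NDRG4 and DDIT4L were lower in every group, at 10.9 CPM per kb or less.

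Within a gene, the order of the 8 groups was clearest for DDIT4. Its group means ran from hypoxic shNT to hypoxic shTIP60, hypoxic shCDK8, hypoxic HIF1A-null and normoxic shTIP60 without overlap between neighbours, and the last 3, normoxic shNT, shCDK8 and HIF1A-null, overlapped. For NDRG1, hypoxic shNT and shTIP60 overlapped at the top, hypoxic shCDK8 and hypoxic HIF1A-null followed without overlap, and the 4 normoxic groups overlapped as neighbours. For NDRG3 only the lowest group, hypoxic shTIP60, stood apart from its neighbour. For DDIT4L the hypoxic shNT and shCDK8 groups overlapped at the top, and hypoxic HIF1A-null was lowest without overlap.

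NDRG1 and DDIT4 are plotted against each other in the 16 libraries, which fall into a hypoxic and a normoxic set. Among hypoxic libraries those of HIF1A-null were lowest for both genes, those of shCDK8 next, and those of shTIP60 and shNT highest. Among normoxic libraries the shTIP60 libraries were highest for DDIT4 but at 97.7 and 111 CPM for NDRG1, within the range of the other normoxic libraries.

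**Figure D4:**
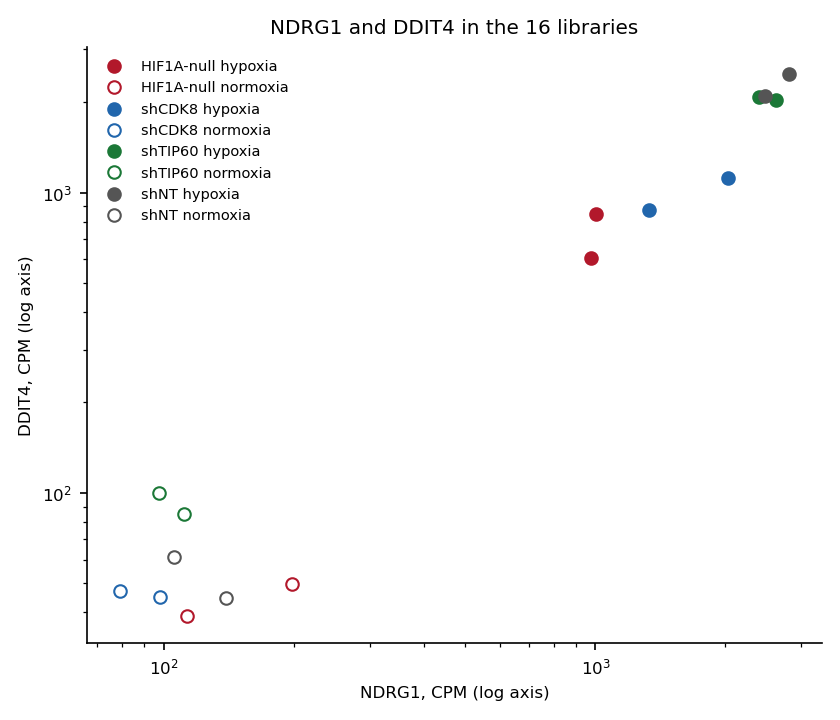
CPM of DDIT4 against CPM of NDRG1 in each of the 16 libraries on log axes, filled for hypoxia and open for normoxia, with a color for each line. The hypoxic libraries of HIF1A-null and then shCDK8 lie lowest for both genes (605 CPM of DDIT4 at the lowest), and those of shTIP60 and shNT lie highest, overlapping for NDRG1 but not for DDIT4.

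The genes whose levels most resembled those of each induced member were found by Pearson correlation of log2 CPM over the 16 libraries, among 11263 genes with a mean of at least 5 CPM. The libraries share their lines and oxygen conditions, so these values describe a pattern over both. A high value does not require the same order of lines within hypoxia. For NDRG1 the closest were RIOK3, an atypical kinase gene (r = 0.991), ERRFI1, an inhibitor of the EGF receptor (r = 0.990), KDM3A, a histone demethylase (r = 0.989), TMEM74B (r = 0.985) and HIVEP2 (r = 0.985). For DDIT4 they were the glycolytic enzyme gene ALDOA (r = 0.985), the semaphorin gene SEMA4B (r = 0.983), ERRFI1 (r = 0.982), KDM3A (r = 0.981) and the clock repressor gene BHLHE40 (r = 0.980). With Spearman correlation in its place, 0 of these 5 genes stayed among the 5 closest for either member. KDM3A, which stands in both sets, had 140 ± 31.1 CPM in hypoxic HIF1A-null cells and 334 ± 69.7 CPM in hypoxic shNT cells (SD, n = 2 each). BHLHE40 did not share the order of lines of DDIT4. In hypoxia it had 721 ± 49.6 CPM in HIF1A-null, 569 ± 75.3 CPM in shCDK8, 928 ± 49.9 CPM in shTIP60 and 806 ± 84.7 CPM in shNT.

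Genes of the pathways around REDD1 and the NDRG family were counted in 6 lists, to be read beside the 38% of all tested genes called by hypoxia in HIF1A-null and the 40.7% called in shNT. Among 12 genes of mTORC1 and its inhibitory axis, hypoxia called 2 higher and 2 lower in HIF1A-null and 3 higher and 1 lower in shNT. In shNT the kinase MTOR itself fell by 1.08 ± 0.17 (log2, SE, adjusted p = 1.25e-04), the energy sensor subunit PRKAA2 rose by 1.29 ± 0.22 (adjusted p = 2.32e-04) and TSC1, through which REDD1 acts, rose by 0.66 ± 0.15 (adjusted p = 0.00257). MTOR was at 115 ± 3.45 CPM in hypoxic HIF1A-null cells against 120 ± 21.3 CPM in normoxic HIF1A-null cells, and at 51.5 ± 9.14 CPM in hypoxic shNT cells against 109 ± 10.5 CPM in normoxic shNT cells (SD, n = 2 each). The MTOR response differed between HIF1A-null and shNT by 1.01 ± 0.24 (adjusted p = 0.00973), and that of RHEB, the GTPase that switches mTORC1 on, by 0.63 ± 0.20 (adjusted p = 0.0368). In shCDK8, which keeps HIF1A, MTOR averaged 97.7 CPM in hypoxia against 114.6 CPM in normoxia. Hypoxic shCDK8 cells held more MTOR than hypoxic shNT cells (log2 0.92 ± 0.17, adjusted p = 9.03e-04). In shTIP60 it fell as in shNT, to 54.9 CPM in hypoxia from 117 CPM in normoxia. No gene of this list was called in the shCDK8 or shTIP60 response. Of 8 mTORC1 substrates, beside the same shares of all genes, 2 were higher and 2 lower in HIF1A-null, and 1 higher (the autophagy kinase gene ULK1, log2 0.60 ± 0.16, adjusted p = 0.00584) and 3 lower in shNT, among them RPS6KB1, the S6 kinase gene (log2 -0.61 ± 0.13, adjusted p = 0.00177), and EIF4EBP2 (log2 -0.39 ± 0.11, adjusted p = 0.0106).

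Of 12 tested genes of the sestrins and amino acid sensing, 3 were higher in hypoxia in HIF1A-null (38% of all genes called), and 5 higher and 2 lower in shNT (40.7% of all genes called). In shNT the genes with the smallest adjusted p were WDR59 (log2 0.75 ± 0.12, SE, adjusted p = 1.26e-04), GATSL3, an arginine sensor gene (log2 1.52 ± 0.24, adjusted p = 1.40e-04), and NPRL2 (log2 0.49 ± 0.12, adjusted p = 0.00423). SESN2, which restrains mTORC1 by a route apart from the REDD pair, was the gene of this list that differed most clearly between the 2 responses. It had 130 ± 2.85 CPM in hypoxic HIF1A-null cells against 25.01 ± 1.25 CPM in normoxic HIF1A-null cells, and 25.6 ± 1.65 CPM in hypoxic shNT cells against 18.1 ± 2.71 CPM in normoxic shNT cells (SD, n = 2 each). Its response was larger in HIF1A-null by 1.88 ± 0.23 (log2, adjusted p = 9.65e-05), while those of DDIT4 and DDIT4L were smaller there. SEC13 also responded more in HIF1A-null (log2 0.82 ± 0.20, adjusted p = 0.0133) and NPRL2 less (log2 -0.64 ± 0.17, adjusted p = 0.0189).

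Among 10 tested factors that regulate REDD1 transcription or turnover, 5 were higher and 1 lower in hypoxia in HIF1A-null (38% of all genes called), and 3 higher and 1 lower in shNT (40.7% of all genes called). The list holds HIF1A, the altered gene, which is among the higher genes in HIF1A-null (log2 1.85 ± 0.15 SE, adjusted p = 4.91e-07) and is the lower one in shNT (log2 -0.71 ± 0.15, adjusted p = 0.00124). TP63 and TXNIP of this list did not pass the filter on low counts. EPAS1, which encodes HIF2A, had 54.2 ± 0.09 CPM in hypoxic HIF1A-null cells against 43.5 ± 1.28 CPM in normoxic HIF1A-null cells, and 190 ± 11.8 CPM in hypoxic shNT cells against 68.1 ± 7.996 CPM in normoxic shNT cells (SD, n = 2 each). Its response was smaller in HIF1A-null (log2 difference -1.16 ± 0.18 SE, adjusted p = 6.97e-04). Lower EPAS1 than in shNT was not particular to HIF1A-null, since shCDK8 and shTIP60, which keep HIF1A, were lower too. EPAS1 averaged 70.1 CPM in hypoxia and 32.7 CPM in normoxia in shCDK8, and 92.2 CPM and 35.5 CPM in shTIP60. ATF4, a stress factor that activates DDIT4 and SESN2, had 790 ± 13.8 CPM in hypoxic HIF1A-null cells against 359 ± 56.5 CPM in normoxic HIF1A-null cells, and 384 ± 37.9 CPM in hypoxic shNT cells against 358 ± 28.05 CPM in normoxic shNT cells (SD, n = 2 each). Its response was larger in HIF1A-null by 1.04 ± 0.21 (adjusted p = 0.00336). NR3C1, the glucocorticoid receptor gene, rose in shNT by 1.08 ± 0.15 (adjusted p = 3.50e-05), to 44.6 CPM from 21.1 CPM. It was at 15.1 CPM in hypoxia against 12.6 CPM in normoxia in HIF1A-null, and at 17.2 against 13.1 CPM in shCDK8. In shTIP60 it was at 105 against 71.5 CPM, and already higher than in shNT in normoxia (log2 1.76 ± 0.15, adjusted p = 5.27e-07). In the shCDK8 and shTIP60 responses no gene of this list was called. The part of ATF4 in the remaining induction of DDIT4 in HIF1A-null cells was not tested.

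The YWHA genes and SFN, 7 genes in all, encode adaptor proteins of the family to which REDD1 and TSC2 bind. In hypoxia 1 was higher in HIF1A-null, where 38% of all genes were called, and 2 were lower in shNT, where 40.7% were called. The 2 in shNT were YWHAH (log2 -0.84 ± 0.14, SE, adjusted p = 2.07e-04) and YWHAB (log2 -0.54 ± 0.12, adjusted p = 0.00200). YWHAH was at 175 ± 22.1 CPM in hypoxic HIF1A-null cells against 173 ± 27.3 CPM in normoxic HIF1A-null cells (SD, n = 2 each), and its response differed from that of shNT by 0.86 ± 0.20 (adjusted p = 0.00825). The YWHAB response differed by 0.61 ± 0.17 (adjusted p = 0.0221). The fall of YWHAH was largest in shNT, to 98.3 CPM in hypoxia from 176 CPM in normoxia. It was smaller in the other shRNA lines too, at 157 against 173 CPM in shCDK8 and 151 against 178 CPM in shTIP60. YWHAB was at 299 against 333 CPM in shCDK8, but fell in shTIP60 to 208 CPM from 334 CPM. No gene of this list was called in the shCDK8 or shTIP60 response.

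Of 14 tested kinases, repressors and partners of the NDRG family, 5 were higher and 2 lower in hypoxia in HIF1A-null (38% of all genes called), and 7 higher and 2 lower in shNT (40.7% of all genes called). MYCN of this list was not tested. EGLN3, a HIF prolyl hydroxylase gene, had 3.46 ± 1.31 CPM in hypoxic HIF1A-null cells against 8.23 ± 0.65 CPM in normoxic HIF1A-null cells, and 65.6 ± 0.94 CPM in hypoxic shNT cells against 7.98 ± 0.34 CPM in normoxic shNT cells (SD, n = 2 each). Its response was smaller in HIF1A-null (log2 difference -4.30 ± 0.29 SE, adjusted p = 5.91e-07). EGLN1, which encodes PHD2, rose in shNT by 1.88 ± 0.13 (adjusted p = 4.81e-08) and its response in HIF1A-null was smaller (log2 -1.70 ± 0.18, adjusted p = 3.75e-05). LDHA, the lactate dehydrogenase gene, rose in shNT by 1.80 ± 0.15 (adjusted p = 3.62e-07) and its response in HIF1A-null was smaller (log2 -1.32 ± 0.21, adjusted p = 7.45e-04). The median log2 fold changes of these 6 lists in hypoxic shNT cells ran from -0.15 to 0.39 and in HIF1A-null from 0.03 to 0.42, beside medians over all genes of -0.0023 in HIF1A-null and -0.00067 in shNT.

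**Figure D5:**
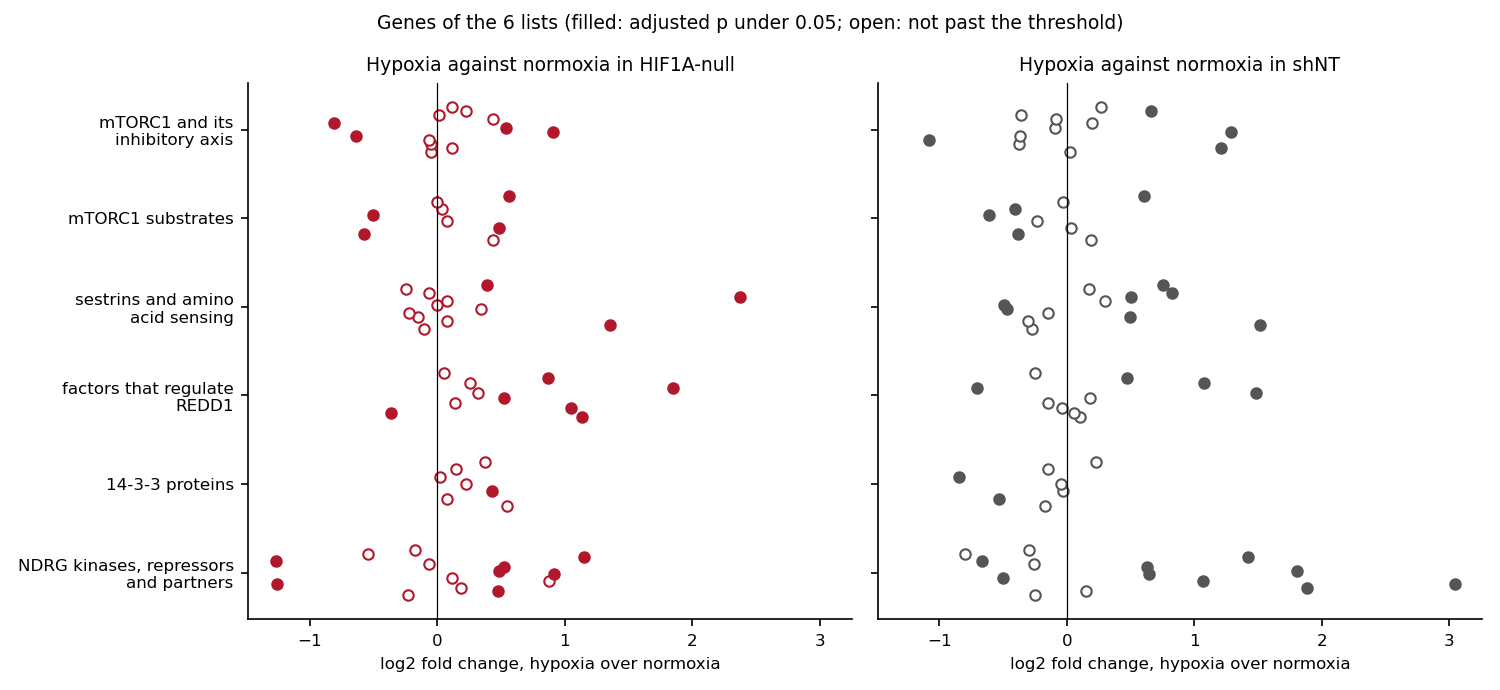
Log2 fold change of hypoxia over normoxia for each tested gene of the 6 lists, a point per gene, in HIF1A-null (left) and shNT (right), filled where the adjusted p was under 0.05. EGLN3 is the point farthest to the right in shNT at 3.04, and SESN2 is the point farthest to the right in HIF1A-null at 2.38.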

How the data were processed

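Per the labels' protocols, poly(A) RNA of 16 HCT116 libraries was sequenced on an Ion Torrent instrument. Raw counts per gene symbol were deposited, with no scaling by the authors per the file headers. Per the submitters' processing notes, the build was hg19 and the tools included R (3.0.3), DESeq (1.14.0), HTSeq (0.5.4p5) and GSNAP. The gene annotation, the strand setting and the filters on reads are not given in the sources used here. NDRG1 shares 753 exon bases with a gene without a symbol on the same strand, which has no counts of its own here. NDRG2 shares 236 exon bases with TPPP2 on the opposite strand, which had 0 to 1 counts. NDRG2 (173 bases), DDIT4L (42 bases) and NDRG3 (35 bases) also share exon bases with opposite-strand genes that have no counts here. No 2 members share a 30-base stretch of transcript.

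The test was the robust quasi-likelihood test of edgeR 4.0.16 (R 4.3.3). Its filterByExpr function, given the groups and its minimums of 10 counts per library and 15 over all, kept 15520 of 23669 genes. The model held all libraries, TMM factors and a coefficient for each group, with 8 residual degrees of freedom and a common biological coefficient of variation of 0.132. The p-values are two-sided, with Benjamini-Hochberg adjustment over all genes tested, and SE is the log2 fold change divided by the root of its F. The 13 comparisons were hypoxia against normoxia in 4 lines, 3 lines against shNT in each condition, and 3 differences between responses. The fit was also run on simulated counts in which only a small share of genes changed. That run does not test the scaling where many genes change, as with hypoxia here. Alternatives were DESeq2 1.42.0, relative log expression (RLE) factors, library totals, other filters, separate fits for the groups of each comparison, a block and leaving out each library.

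Gene lengths came from GENCODE on GRCh37, with the canonical transcript of each member except DDIT4, for which the principal transcript was used. Promoters came from RefSeq on GRCh38.p14 (4 of 6 members matched, not NDRG1 and NDRG3). The text names the members, the targeted genes, the 5 closest genes of NDRG1 and DDIT4, and up to 3 called genes per list with the smallest adjusted p in shNT and in the difference between the HIF1A-null and shNT responses. Members and lists were chosen with earlier results of these data known. The headings carry no replicate number. Intervals rest on a spread estimated over all 8 groups together and moderated across genes, with prior degrees of freedom added to the residual ones. They do not measure the spread of the compared libraries alone, and having 2 libraries per group limits precision for every gene.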

Additional observations from a re-analysis of the deposited data

Results flagged for a closer look

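For 4 of the 6 genes the hypoxia response differed between HIF1A-null and shNT by the test of the difference itself (edgeR's interaction contrast). The log2 difference of HIF1A-null from shNT was -1.76 for NDRG1, -1.05 for NDRG4, -1.39 for DDIT4 and -1.87 for DDIT4L. For NDRG1 and DDIT4 both lines rose and HIF1A-null rose less. For NDRG4 and DDIT4L the gene fell in HIF1A-null and was not called in shNT. The HIF1A-null line also differs from shNT in carrying no labelled shRNA, and the part of that in these differences cannot be told apart from the loss of HIF1A.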

How the results depend on the processing

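Of 25 member results past the threshold, 291 alternatives kept the call in 262 and lost it in 29, with 0 changes of sign. Of 53 results not past it, 639 alternatives gave 32 calls and 34 changes of sign. With no filter on low counts, 1 member was called in normoxic shCDK8 against shNT, 1 in normoxic HIF1A-null against shNT, 1 in the shTIP60 response and 1 in the shCDK8 response, where the count as reported was 0. DESeq2 called 1 in normoxic HIF1A-null and 1 in the shCDK8 response. Library totals left 1 in hypoxic shCDK8, and a fit of only the groups compared left 2 in the HIF1A-null response. That fit also gave 3 for shTIP60 in normoxia, with NDRG4 added. Why these settings changed the counts was not tested.

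Leaving out 1 library at a time gave 2 to 3 members called for hypoxia in shTIP60, 2 to 4 for hypoxia in HIF1A-null, 0 to 2 for shTIP60 in normoxia, 0 to 1 for HIF1A-null in normoxia, 0 to 1 for shTIP60 in hypoxia, 1 to 2 for shCDK8 in hypoxia and 2 to 4 for the HIF1A-null response. These fits have fewer samples, and a lone library is assumed to vary like the other groups.

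The replicate numbers of the labels are not in the headings, so the 2 series of library numbers served as a replicate block, chosen after seeing the data. Deviations of same-series libraries had correlations of 0.0307 to 0.336 over 28 pairs of groups, over 0.1 in 18. With the block 1 member was called for shCDK8 in normoxia (NDRG1, adjusted p = 0.0466), 1 for HIF1A-null in normoxia and 1 in the shCDK8 response. It also called DDIT4L for hypoxia in shNT (adjusted p = 0.0183) and shCDK8 (0.0368), NDRG2 for hypoxia in HIF1A-null (0.0468), NDRG4 in hypoxic shCDK8 (0.0289) and NDRG3 in hypoxic HIF1A-null (0.00979). Over all genes 7701 were called for hypoxia in shNT (6311 without the block), 4187 in the HIF1A-null response (2553), 532 in the shCDK8 response (6) and 72 in the shTIP60 response (5).

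Library totals shifted the median of all genes by -0.16 to -0.27 in the hypoxia comparisons and by -0.13 for HIF1A-null against shNT in hypoxia. In shNT they gave 2116 genes higher and 4605 lower in hypoxia, against 3208 and 3103 with TMM factors. For hypoxia against normoxia they called NDRG3 in shTIP60 (log2 -0.43) and NDRG2 in HIF1A-null (-0.56), and DDIT4L in shTIP60 lost its call (0.71). They turned the sign of uncalled hypoxia changes: NDRG3 in shNT (-0.19) and HIF1A-null (-0.048), NDRG4 in shTIP60 (-0.068) and shCDK8 (-0.064) and NDRG2 in shCDK8 (-0.033), and of NDRG3 in the shCDK8 response (0.013). The block turned DDIT4L in normoxic shCDK8 (0.0096). RLE factors moved 0 of 48 group levels by more than 1 SD, and library totals 20 of 48.

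Uncalled results that changed sign without 1 library had these ranges (log2). In hypoxia against normoxia NDRG3 ranged from -0.18 to 0.17 in shNT and -0.063 to 0.029 in shCDK8, and NDRG4 from -0.082 to 0.25 in shCDK8. Against shNT in normoxia NDRG3 ranged from -0.16 to 0.0038 in shTIP60, DDIT4 from -0.41 to 0.039 and DDIT4L from -0.32 to 0.38 in shCDK8, and NDRG1 from -0.11 to 0.72, NDRG3 from -0.038 to 0.34 and NDRG4 from -0.15 to 0.42 in HIF1A-null. Against shNT in hypoxia NDRG1 ranged from -0.17 to 0.019 in shTIP60, and NDRG3 from -0.33 to 0.026 and DDIT4L from -0.32 to 0.26 in shCDK8. For the responses NDRG1 ranged from -0.060 to 0.34 and DDIT4L from -0.11 to 0.60 in shTIP60, and NDRG3 from -0.19 to 0.16, DDIT4L from -0.43 to 0.27 and NDRG1 from -0.52 to 0.086 in shCDK8. With whole RefSeq promoter windows, which run past the start and were chosen after seeing the data, DDIT4 held 4 matches. Of the 5 genes closest to NDRG1 and to DDIT4, 0 and 0 were shared with Spearman correlation, and 3 and 4 with library totals.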
